A study of Mus musculus with 22 samples.

Results

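The genes of the neuronal microtubule cytoskeleton and growth cone were followed through embryoid body development with and without tetrabromobisphenol A (TBBPA), a brominated flame retardant. The set is a list of gene names, chosen with earlier results of these data known. All 10 members, Tubb3, Map2, Mapt, Dcx, Stmn1, Stmn2, Stmn3, Stmn4, Gap43 and Dpysl4, were found among the 19721 genes listed in at least 1 library. All libraries came from J1, an established mouse embryonic stem (ES) cell line, kept as ES cells or grown as embryoid bodies, floating cell clusters that differentiate into mixed tissues. The titles place the embryoid bodies at day 4, 9, 12, 18 or 28 (D4 to D28). Every day had 1 library with 10 nM TBBPA, 1 with 100 nM TBBPA and 2 with the vehicle, 0.1% dimethyl sulfoxide (DMSO). A further 2 libraries are titled as ES cells with no treatment, although their source name reads embryoid body as for all others, so that the step out of the ES state also brings in DMSO. The labels give no strain, sex or culture of origin beyond the line, and every library is bulk RNA of mixed cells.

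Microtubules are polymers of alpha- and beta-tubulin that fill axons and dendrites and carry their transport. Structural microtubule-associated proteins bind along the polymer and stabilise it, whereas stathmins bind free tubulin dimers and favour disassembly, and a growing axon needs both. The growth cone, the motile tip of the axon, holds membrane-bound and cytosolic proteins that couple guidance signals to this cytoskeleton. Most of these genes switch on as neural progenitors leave the cell cycle and extend processes, and several are standard markers of young neurons.

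Total estimated counts were 18158583 to 18998141 per library, and 16427 to 17816 genes were listed. Levels are given as CPM, counts relative to library sizes scaled by the TMM method, and FPKM, the authors' value per transcript length, was used wherever genes were compared with each other. Log2 fold changes are given ± SE, which was worked back from the test as the size of the change divided by the square root of its F value. A gene "rose", "fell" or "passed" when the p-value of edgeR's quasi-likelihood test, adjusted over all genes tested, was under 0.05. The labels are silent on whether the 2 libraries of a group are 2 cultures, so each p-value rests on a spread between libraries that may be technical only. The ES pair stood apart from the other pairs, with a mean chi-square per gene between its counts of 22.5 against 1.63 to 3.38 in the DMSO pairs, where 1 is counting noise, and 3.26 to 7.95 between the doses of the same day. Pou5f1, the pluripotency factor Oct4, had 82.8 and 88.4 CPM in the libraries of D28 with DMSO, against 1251 and 1417 CPM in those of ES cells. In bulk samples, fewer cells of a type and less RNA per cell cannot be told apart.

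The 4 stathmins are one gene family with different starts, and the start of each coding sequence is shown because the family members behaved differently in ES cells and along the course. The first 90 coding bases below were read from GENCODE M21 transcripts (GRCm38) that carry the RefSeq entry, with cysteine codons in capitals. In Stmn2, Stmn3 and Stmn4 the cysteine pair lies in the membrane anchor that is palmitoylated and holds these proteins on Golgi-derived vesicles, while Stmn1, the cytosolic founding member, has no cysteine codon there.
Stmn1: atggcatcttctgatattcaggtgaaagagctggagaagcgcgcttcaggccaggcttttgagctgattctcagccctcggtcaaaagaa
Stmn2: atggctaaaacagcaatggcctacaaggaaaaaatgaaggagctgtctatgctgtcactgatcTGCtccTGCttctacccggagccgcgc
Stmn3: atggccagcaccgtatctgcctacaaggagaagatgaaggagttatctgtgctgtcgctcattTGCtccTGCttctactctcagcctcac
Stmn4: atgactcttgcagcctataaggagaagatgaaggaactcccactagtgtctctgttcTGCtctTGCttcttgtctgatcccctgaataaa
The capitals are codons 22 and 24 of Stmn2 and Stmn3 and codons 20 and 22 of Stmn4. Over the aligned bases of the coding sequences, the closest pairs were Stmn1 and Stmn2, 73.7% identical over 429 bases, and Stmn2 and Stmn3, 73.6% over 537 bases. The most distant pair was Stmn1 and Stmn3, with 69.4% over 435 bases. The coding sequence has 447 bases in Stmn1 and 537 in Stmn2, so pairs with Stmn1 leave out part of the longer partner. None of the stretches of 50 bases in the transcripts of Stmn2, Stmn3 or Stmn4 occurred in a transcript of another gene. For Stmn1, 36.5% of them did, in the transcripts Gm11223 and Gm23634, neither of which is listed in the tables, so its counts depend on how such reads were assigned and are uncertain to that extent. Of the other members, Dcx shared 0.278% and Map2 0.178% of such stretches with other genes, and Tubb3, Mapt, Gap43 and Dpysl4 shared none.

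Tubb3, the neuron-specific beta-tubulin (chr8:123411424-123422015, + strand, GENCODE M21 on GRCm38), marked the course of the control embryoid bodies. It had 44.3 and 28.9 CPM in ES cells, 5.0 and 5.47 CPM at D4, 48.4 and 47.9 CPM at D9, 116 and 122 CPM at D12, 216 and 228 CPM at D18, and 26.1 and 24.0 CPM at D28. No 2 neighbouring groups overlapped, and the gene fell by 2.80 ± 0.19 on the log2 scale at D4 against ES cells (adjusted p = 1.83e-07). It rose by 3.20 ± 0.19 at D9 against D4, by 1.32 ± 0.13 at D12 and by 0.90 ± 0.13 at D18, and fell by 3.15 ± 0.14 at D28 against D18 (edgeR adjusted p = 1.6e-08). Its D28 level was 11.3% of its D18 level.

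Of the structural microtubule-binding genes, Dcx, doublecortin of migrating neurons (chrX:143855842-143933311, − strand), had the widest course. It had 0.0613 and 0.0608 CPM in ES cells, 0.120 CPM in both DMSO libraries of D4, 4.04 and 4.88 CPM at D9, 33.0 and 37.4 CPM at D12, 122 CPM in both of D18, and 8.80 and 7.99 CPM at D28. Each group from D4 on was clear of its neighbours, and the gene rose by 5.13 ± 0.32 at D9, by 2.99 ± 0.11 at D12 and by 1.8 ± 0.08 at D18. Its ES level was 0.0501% and its D28 level 6.89% of the D18 level, with a fall of 3.86 ± 0.10 at D28 (adjusted p = 2.95e-12). At D4 and in ES cells it rested on a few counts per library, and its difference there did not pass (0.91 ± 0.89, adjusted p = 0.495).

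Map2, which stabilises dendritic microtubules (chr1:66175273-66442583, + strand), had 1.84 and 1.46 CPM in ES cells, 7.71 and 9.02 CPM at D4, 20.3 and 18.7 CPM at D9, 82.1 and 89.5 CPM at D12, 208 and 207 CPM at D18, and 58.8 and 54.7 CPM at D28. It was the only one of the structural binders that rose at every step up to D18, starting with 2.34 ± 0.17 at D4 against ES cells (adjusted p = 2.25e-08). Mapt, tau of the axon (chr11:104231390-104332090, + strand), had 46.2 and 47.7 CPM in ES cells, 3.43 and 2.95 CPM at D4, 7.26 and 8.31 CPM at D9, 18.1 and 16.8 CPM at D12, 92.6 and 92.0 CPM at D18, and 24.1 and 24.5 CPM at D28. Its ES libraries lay above every control library up to D12 and the D28 pair, and its fall at D4 of 3.88 ± 0.11 was the steepest of the 10 genes (adjusted p = 1.27e-12). The largest later step of Mapt was 2.41 ± 0.08 at D18 against D12. At D28 it had fallen by 1.93 ± 0.08 and Map2 by 1.87 ± 0.07 relative to D18.

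The stathmins differed most from each other in ES cells. Stmn2, also called SCG10 of growing axons (chr3:8509360-8561606, + strand), had 173 and 137 CPM in ES cells, 16.4 and 15.5 CPM at D4, 49.3 and 49.0 CPM at D12, 83.2 and 91.4 CPM at D18, and 29.3 and 25.7 CPM at D28. Its ES mean was 178% of its D18 mean, and it was the only one of the 10 whose highest control group was the ES cells. It fell by 3.28 ± 0.11 at D4 (adjusted p = 2.08e-11) and then rose at D9 (1.14 ± 0.12), D12 (0.50 ± 0.11) and D18 (0.84 ± 0.10). Elavl3, a neuronal RNA-binding protein, had 103 to 106 CPM at D18 with DMSO, against 3.16 to 3.25 CPM in the ES cells. Syt1, the synaptic calcium sensor, had 19.5 to 19.6 CPM at D18, against 0 to 0.123 CPM in the ES cells, where Stmn2 had 173 and 137 CPM and Mapt 46.2 and 47.7 CPM. These 2 markers do not stand for all: at D4 against ES cells, 12 of 20 other neuron markers rose and 5 fell. The 20 summed to 115.7 to 141.7 CPM in the ES cells, against 125.4 to 128.6 CPM at D9 and 726.0 to 745.0 CPM at D18 with DMSO. Nefl, a neurofilament gene, was among those that fell (-1.46 ± 0.11).

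Stmn4, the stathmin named RB3 (chr14:66344296-66361680, + strand), had 0.245 and 0.0608 CPM in ES cells, 1.32 and 1.14 CPM at D4, 2.31 and 2.20 CPM at D9, 12.7 and 12.1 CPM at D12, 59.8 and 63.2 CPM at D18, and 8.0 and 8.59 CPM at D28. It rose at all 4 steps up to D18, among them D4 against ES cells (2.96 ± 0.42) and D12 against D9 (2.47 ± 0.15). Its ES level rested on 4 counts and 1 count, and the first of these steps was 4.20 without ES library 1 and 2.30 without ES library 2. Stmn3, the stathmin called SCLIP (chr2:181306459-181314500, − strand), stayed within 2.46 to 3.99 CPM in all control libraries up to D9, passed neither of those steps, and had 10.9 and 9.11 CPM at D12 and 35.8 and 35.1 CPM at D18. Its rises were 1.86 ± 0.16 at D12 and 1.83 ± 0.12 at D18. Stmn1 (chr4:134468320-134473843, + strand), which proliferating cells also express, moved least up to D18, with 336 and 269 CPM in ES cells, 261 and 232 CPM at D4, 406 and 385 CPM at D9, 385 and 381 CPM at D12, 462 and 437 CPM at D18, and 117 and 110 CPM at D28. It fell at D4 (-0.30 ± 0.09), rose at D9 (0.68 ± 0.09), did not pass at D12 (-0.03 ± 0.09, adjusted p = 0.836) or at D18 (0.24 ± 0.09, adjusted p = 0.0529), and fell by 1.99 ± 0.09 at D28.

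Gap43, the growth-associated protein under the growth cone membrane (chr16:42248442-42340651, − strand), had 2.51 and 0.608 CPM in ES cells, 4.52 and 3.43 CPM at D4, 30.6 CPM in both libraries of D9, 43.3 and 41.3 CPM at D12, 84.4 and 86.0 CPM at D18, and 17.6 and 18.7 CPM at D28. Dpysl4, a collapsin response mediator protein of the cytosol (chr7:139086001-139102704, + strand), had 0.613 and 0.790 CPM in ES cells, 0.903 and 1.44 CPM at D4, 13.2 and 13.6 CPM at D9, 20.6 and 21.4 CPM at D12, 32.9 and 32.2 CPM at D18, and 8.90 and 8.14 CPM at D28. Both made their largest step at D9 against D4, Gap43 by 2.94 ± 0.22 and Dpysl4 by 3.50 ± 0.18. The later rise of Gap43 at D12 (0.48 ± 0.16, adjusted p = 0.0392) no longer passed when either library of D9 or D12 was left out, with adjusted p of 0.124 to 0.187. At D28 Gap43 fell by 2.23 ± 0.16 and Dpysl4 by 1.94 ± 0.12.

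**Figure D1:**
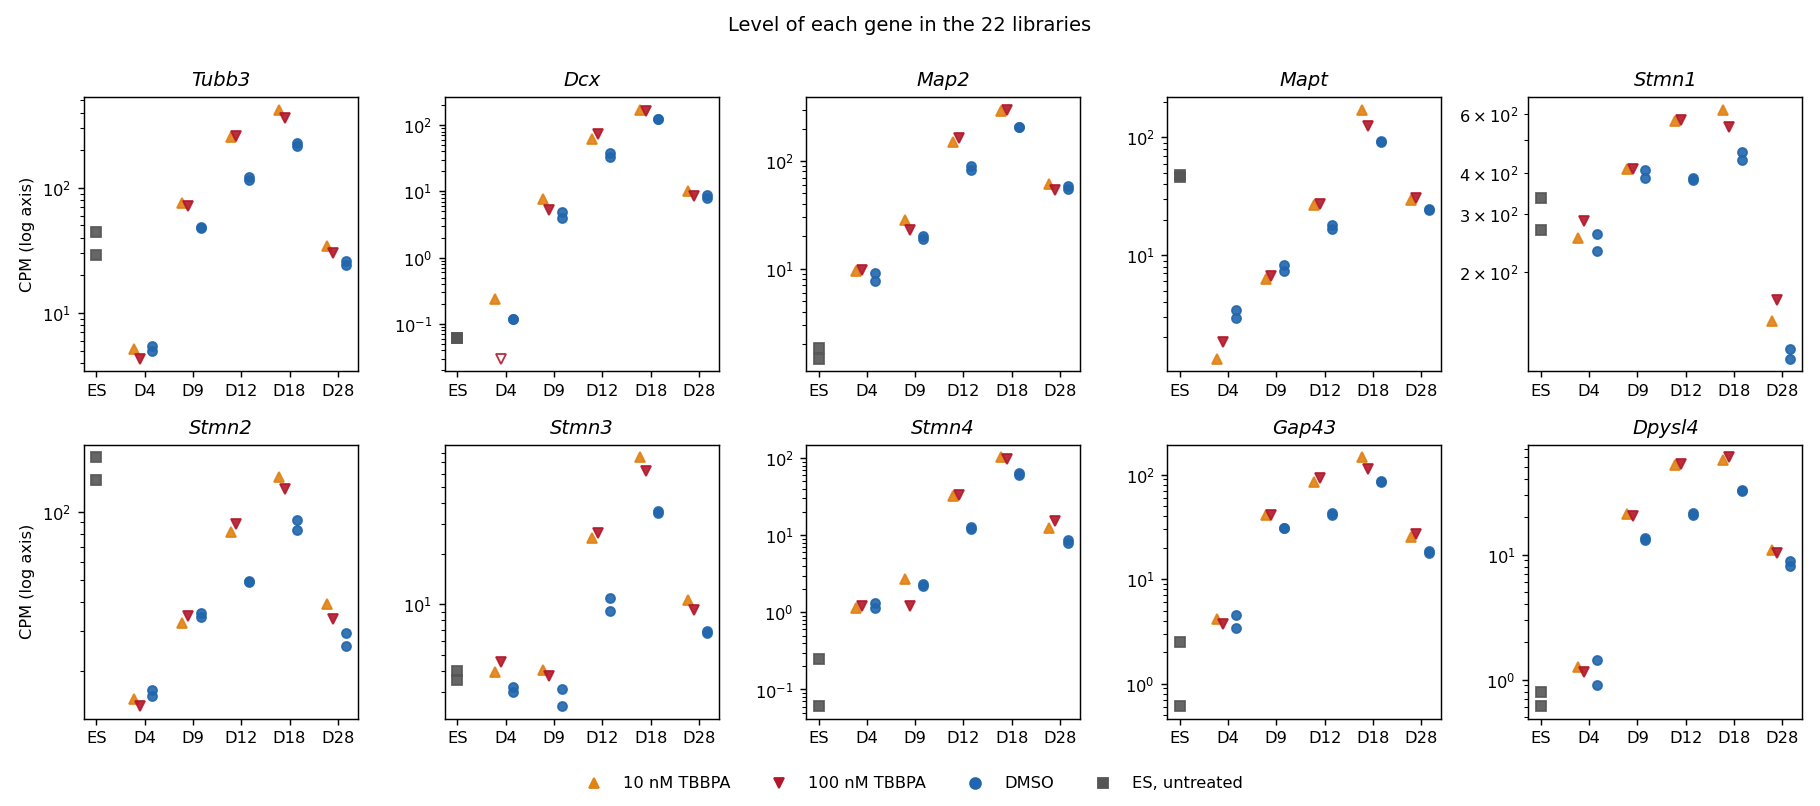
Level of each of the 10 genes (CPM, log axis) in each of the 22 libraries, with ES cells and the 5 days on the x axis; each point is 1 library, and at each day the 10 nM and 100 nM TBBPA libraries stand left of the 2 DMSO libraries. The open triangle of Dcx at D4 marks the 100 nM library in which the gene was not listed. At D12 and D18 both TBBPA libraries lie above both DMSO libraries in all 10 panels, and every gene is lower at D28 than at D18.

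Counted together, at D4 against ES cells 3 of the 10 members rose (Map2, Stmn4 and Gap43) and 4 fell (Tubb3, Mapt, Stmn1 and Stmn2), where 62.3% of all 16203 genes tested changed in either direction. With 1 library left out, 6 or 7 members passed, and with the 4 libraries fitted alone 5. Stmn1 was lost without the second D4 DMSO library (adjusted p = 0.123) and with the 4 libraries alone (0.0814), and Gap43 without the first D4 DMSO library (0.0617) and with the 4 libraries alone (0.0853). The step of Gap43 was 2.69 without ES library 1 and 0.66 without ES library 2, against 1.35 ± 0.37 with both. At D9 against D4, 9 rose, where 31.9% of all genes rose and 28.9% fell, and Stmn3 did not pass. At D12 against D9, 9 rose, where 17.5% of all genes rose and 15.6% fell, and at D18 against D12, 9 rose, where 20.7% rose and 17.1% fell. Stmn1 was the one that did not pass in both steps. At D28 against D18 all 10 fell, where 24.9% of all genes rose and 28.1% fell, with a median log2 change of -2.11, against -0.03 for all genes tested.

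The related gene lists did not all follow the 10 genes at the early steps. Of the other tubulin isotypes, 12 of 13 were tested, and at D4 against ES cells 4 rose and 6 fell, among them Tubb4a (3.03 ± 0.18) and the neural isotype Tubb2b (-3.13 ± 0.06). Tubb2b then rose by 1.27 ± 0.06 at D9, 1.25 ± 0.06 at D12 and fell by 1.91 ± 0.06 at D28. Among 28 growth cone and neurite proteins, 17 rose and 6 fell at D4, 20 rose and 6 fell at D9, 21 rose and 3 fell at D12, and 22 rose and 1 fell at D18. Examples were the actin-binding protein Dbn1 at D4 (2.51 ± 0.07), the adhesion molecule Ncam1, which fell at D4 (-2.71 ± 0.10) and rose at D9 (2.73 ± 0.10), and the membrane glycoprotein Gpm6a at D18 (2.65 ± 0.09). Of 36 other microtubule-associated and regulatory proteins, 17 rose and 4 fell at D18, with Dclk1, a kinase related to doublecortin, up by 2.39 ± 0.08.

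Of 20 other neuron markers, 12 rose and 5 fell at D4, 11 rose and 5 fell at D9, 19 rose and 0 fell at D12, and 17 rose and 1 fell at D18. Elavl3 rose by 1.96 ± 0.11 at D12 and by 1.53 ± 0.09 at D18. Of the 10 neural progenitor markers, 6 rose and 2 fell at D9, 7 rose and 0 fell at D12, and 2 rose and 5 fell at D18. Sox1, a factor of early neural progenitors, fell by 3.49 ± 0.14 at D4 and rose by 4.28 ± 0.13 at D9. At D18 the 12 listed glial and 8 listed skeletal muscle markers also moved, with 6 of 11 tested glial markers rising, among them Gfap of astrocytes (6.90 ± 0.33), and 8 of 8 muscle markers rising, among them Myog, a myogenic factor (4.82 ± 0.34).

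At D28 against D18, 18 of the 20 other neuron markers fell and 1 rose, with a median of -2.23. Elavl3 fell by 3.06 ± 0.11 and the axonal adhesion protein Cntn2 by 3.99 ± 0.12, whereas Syn2, a synaptic vesicle protein, rose by 1.17 ± 0.14. All 10 neural progenitor markers and all 14 mitosis markers fell as well, Mki67 of cycling cells by 1.55 ± 0.06. All 8 fibroblast markers rose, and their summed level was 16230 to 16870 CPM at D28 with DMSO against 6955 to 7235 CPM at D18. The glial marker sum was 1001 to 1020 CPM at D28 against 217.7 to 224.7 CPM at D18, with Gfap up by 6.13 ± 0.11. The part of these other cell types in the lower level of the 10 genes at D28 was not tested.

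With TBBPA the 10 genes were higher in the middle of the course. At D12 all 10 rose, where 11.9% of all 16383 genes tested rose and 9.19% fell, and at D18 again all 10 rose, where 5.96% rose and 4.56% fell. At D9, 3 rose (Tubb3, Map2 and Dpysl4), where 1.37% of all genes rose and 0.964% fell. At D28, 4 rose (the 4 stathmins), where 3.65% rose and 3.44% fell. At D4, 0 passed in edgeR, where 0.458% of all genes passed in either direction; 2 members had an unadjusted p under 0.05 at D4 with edgeR and 2 with DESeq2, which called 1 of them. Both doses of a day were treated as a pair of libraries and set against its DMSO pair. Where each DMSO pair is added into 1 library, the spread comes only from the ES pair, which stands apart, and from the pairs of unlike doses. With the counts of each DMSO pair added into 1 library, all 10 passed at D12, 3 at D18 (Mapt, Stmn3 and Dpysl4), and 0 at D9 and D28 in edgeR, where 5 members at each of D9 and D28 had an unadjusted p under 0.05.

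Tubb3 had 75.3 and 72.1 CPM with 10 nM and 100 nM TBBPA at D9, against 48.4 and 47.9 CPM with DMSO. It had 255 and 261 CPM with TBBPA at D12, against 116 and 122 CPM with DMSO, and 422 and 360 CPM with TBBPA at D18, against 216 and 228 CPM with DMSO. The TBBPA libraries were the higher ones at all 3 days with no overlap, by 0.61 ± 0.12 at D9 (adjusted p = 0.0116), 1.11 ± 0.11 at D12 (adjusted p = 2.59e-06) and 0.81 ± 0.11 at D18 (adjusted p = 0.000109). At D28 it had 34.0 and 30.3 CPM with TBBPA, against 26.1 and 24.0 CPM with DMSO, and the difference of 0.36 ± 0.14 did not pass (adjusted p = 0.129). At D4 the libraries overlapped.

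Dcx had 62.4 and 74.0 CPM with TBBPA at D12, against 33.0 and 37.4 CPM with DMSO, and 171 and 166 CPM with TBBPA at D18, against 122 CPM in both DMSO libraries. The groups did not overlap at either day, and the rise was 0.95 ± 0.11 at D12 (adjusted p = 4.14e-06) and 0.47 ± 0.10 at D18 (adjusted p = 0.00427). Map2 had 28.5 and 23.0 CPM with TBBPA at D9, against 20.3 and 18.7 CPM with DMSO, then 150 and 164 CPM with TBBPA at D12, against 82.1 and 89.5 CPM with DMSO, and 292 and 300 CPM with TBBPA at D18, against 208 and 207 CPM with DMSO. It rose by 0.40 ± 0.10 at D9, 0.87 ± 0.08 at D12 and 0.52 ± 0.08 at D18, and lay between 53.9 and 60.9 CPM in all 4 libraries of D28 with the groups overlapping (0.02 ± 0.09, adjusted p = 0.943).

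Mapt stood apart from the other structural binders before D12. It had 1.32 and 1.82 CPM with TBBPA at D4, against 3.43 and 2.95 CPM with DMSO, and 6.28 and 6.71 CPM with TBBPA at D9, against 7.26 and 8.31 CPM with DMSO. The TBBPA libraries were the lower ones at both days, but neither difference passed (-1.02 ± 0.27 with adjusted p = 0.103 at D4, and -0.26 ± 0.16 with adjusted p = 0.559 at D9); DESeq2 called the one at D4 (adjusted p = 0.022). At D12 it had 26.8 and 27.4 CPM with TBBPA, against 18.1 and 16.8 CPM with DMSO, and at D18 172 and 126 CPM with TBBPA, against 92.6 and 92.0 CPM with DMSO. These were rises of 0.64 ± 0.12 (adjusted p = 0.000566) and 0.69 ± 0.10 (adjusted p = 6.91e-05), and the TBBPA libraries lay above the DMSO libraries.

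Among the stathmins, Stmn4 and Stmn3 had the largest differences at D12. Stmn4 had 32.1 and 33.5 CPM with TBBPA at D12, against 12.7 and 12.1 CPM with DMSO, and Stmn3 had 24.7 and 26.5 CPM with TBBPA, against 10.9 and 9.11 CPM with DMSO. Neither overlapped, and Stmn4 rose by 1.40 ± 0.13 (adjusted p = 2.37e-07) and Stmn3 by 1.35 ± 0.12 (adjusted p = 1.25e-07). Stmn2 had 81.2 and 87.9 CPM with TBBPA, against 49.3 and 49.0 CPM with DMSO (0.78 ± 0.10). Stmn1 had 572 and 578 CPM with TBBPA, against 385 and 381 CPM with DMSO (0.59 ± 0.09, adjusted p = 0.000111), the smallest rise of the 10 at D12. At D18 the rises were 0.95 ± 0.11 for Stmn3, with 75.3 and 61.9 CPM with TBBPA against 35.8 and 35.1 CPM with DMSO, and 0.38 ± 0.09 for Stmn1, with 620 and 550 CPM with TBBPA against 462 and 437 CPM with DMSO. The other stathmins lay between them, at 0.70 ± 0.11 for Stmn4 and 0.61 ± 0.09 for Stmn2.

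The 4 stathmins were also the genes that passed at D28. Stmn4 had 12.4 and 15.3 CPM with TBBPA, against 8.0 and 8.59 CPM with DMSO (0.74 ± 0.15, adjusted p = 0.00381), and Stmn1 143 and 166 CPM with TBBPA, against 117 and 110 CPM with DMSO (0.44 ± 0.09, adjusted p = 0.00746). Stmn3 rose by 0.53 ± 0.14 and Stmn2 by 0.41 ± 0.11, and in all 4 genes the TBBPA libraries lay above the DMSO libraries. Gap43, with 25.4 and 26.7 CPM with TBBPA against 17.6 and 18.7 CPM with DMSO, did not pass (0.52 ± 0.16, adjusted p = 0.0576), nor did Dpysl4 (0.32 ± 0.11, adjusted p = 0.0797), although neither gene's groups overlapped. These calls rest on all 4 libraries of D28: with any 1 of them left out, only 1 or 2 of the 10 genes passed. When the ES pair, which stands apart, was taken out of the fit, 7 passed.

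The growth cone genes, like Tubb3, had their largest difference at D12. Gap43 had 41.4 CPM in both TBBPA libraries at D9, against 30.6 CPM in both with DMSO, a difference of 0.44 ± 0.15 that did not pass (adjusted p = 0.164). It had 84.7 and 91.9 CPM with TBBPA at D12, against 43.3 and 41.3 CPM with DMSO, and 147 and 114 CPM with TBBPA at D18, against 84.4 and 86.0 CPM with DMSO. It rose by 1.06 ± 0.14 at D12 (adjusted p = 3.08e-05) and by 0.61 ± 0.13 at D18 (adjusted p = 0.00482), with no overlap. Dpysl4 had 20.9 and 20.4 CPM with TBBPA at D9, against 13.2 and 13.6 CPM with DMSO, 51.7 and 53.3 CPM with TBBPA at D12, against 20.6 and 21.4 CPM with DMSO, and 57.3 and 60.2 CPM with TBBPA at D18, against 32.9 and 32.2 CPM with DMSO. Its TBBPA libraries were clear of the DMSO libraries at all 3 days, and it rose by 0.63 ± 0.10 at D9 (adjusted p = 0.000744), 1.32 ± 0.09 at D12 (adjusted p = 5.45e-09, the smallest of the 10) and 0.85 ± 0.08 at D18. With any 1 library of the day left out, 1 or 2 members passed at D9, Dpysl4 in each case, 10 at D12 and 7 to 10 at D18, where Dcx, Stmn1 or Gap43 were those lost.

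**Figure D2:**
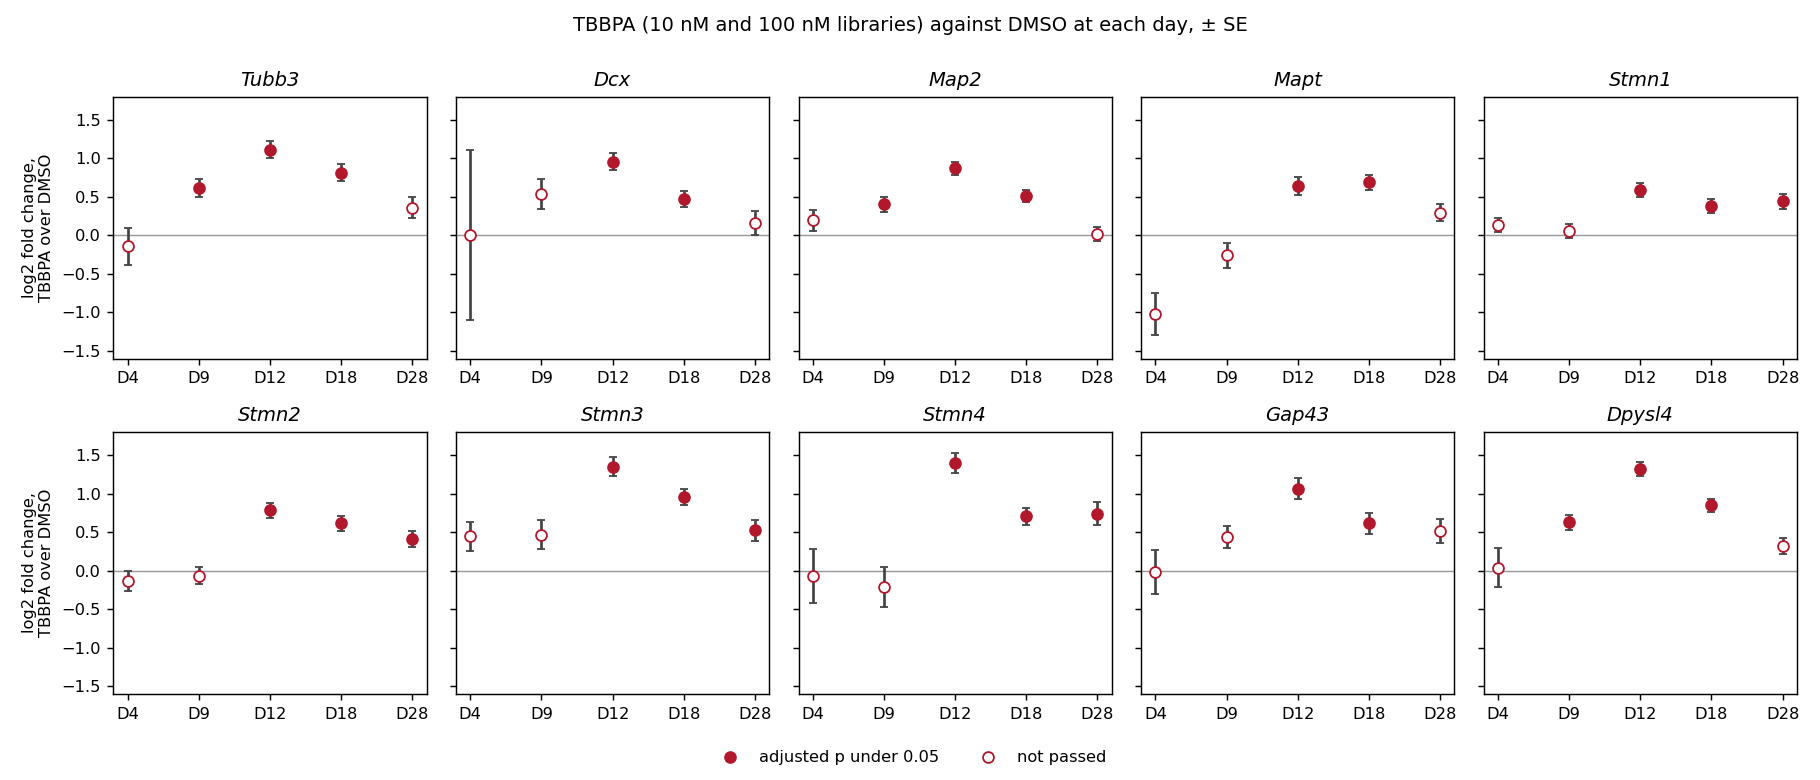
Log2 fold change of each gene, TBBPA (both doses of a day as a pair) over DMSO, at each day, with bars of ± SE; filled points had an adjusted p under 0.05 and open points did not. All 10 genes are filled at D12 and D18, 3 at D9, the 4 stathmins at D28 and 0 at D4.

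The size of the difference changed along the course. A test of whether the TBBPA effect differed between the 5 days passed for 8 of the 10 genes, beside 10.4% of all genes tested, and missed the threshold for Dcx (adjusted p = 0.0532) and Gap43 (adjusted p = 0.0901). Without D12 it passed for 2, Mapt and Stmn2, and it passed for 0 when the counts of each DMSO pair were added into 1 library. The median log2 change of the 10 genes was -0.01 at D4, 0.42 at D9, 1.01 at D12, 0.65 at D18 and 0.39 at D28, and that of all genes tested was within 0.03 of 0 at each day. Both TBBPA libraries lay above both DMSO libraries for 2 of the 10 genes at D4, beside 21.7% of all genes, 7 at D9 (24%), 10 at D12 (37.6%), 10 at D18 (31.3%) and 8 at D28 (29.1%).

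The doses could be set against each other only over the days, since each dose has 1 library a day. The model gives each dose 1 effect for all days, so a change of that effect between days counts as spread between libraries. With the day in the model, 9 of the 10 genes rose with 10 nM TBBPA, beside 5.4% of all 16242 genes tested, and 8 with 100 nM, beside 7.57%. Mapt passed with neither dose (0.40 ± 0.15 with 10 nM and 0.30 ± 0.15 with 100 nM), and Stmn2 missed with 100 nM (0.35 ± 0.12, adjusted p = 0.0543). Stmn3 had the largest mean effect, 0.90 ± 0.11 with 10 nM and 0.81 ± 0.12 with 100 nM, and Stmn1 the smallest of those that rose with both, 0.30 ± 0.07 and 0.34 ± 0.07. For the mean of both doses 9 rose, beside 11.7% of all genes, and Mapt did not pass (adjusted p = 0.0601). Without D18 the 10 nM count was 5, having lost Map2, Stmn1, Stmn2 and Stmn4. With each DMSO pair added into 1 library, 4 passed with 10 nM, 5 with 100 nM and 8 for the mean.

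No member, and 0% of all genes, differed between 100 nM and 10 nM at an adjusted p under 0.05 in edgeR; 1037 genes and 0 members had an unadjusted p under 0.05, and DESeq2 called 8 genes and 0 members. The 95% intervals of the ratio of 100 nM to 10 nM lay between 0.715 and 1.30 over the 10 genes. They are approximate, built from the SE worked back from the test and a t distribution on 13 residual degrees of freedom. That of Stmn1 was the narrowest, 0.911 to 1.16, and that of Mapt reached lowest, 0.715 to 1.20. Single days were more uneven: at D18 Mapt was 1.36 times the DMSO mean with 100 nM and 1.87 times with 10 nM, and at D9 Stmn4 was 0.532 times with 100 nM and 1.19 times with 10 nM, each from 1 library and without a test. Both doses share the same DMSO libraries. Effects that vary between days widen these intervals, so the lack of a call does not show that the doses act alike.

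Among the other genes of the neuronal cytoskeleton, at D12 with TBBPA 6 tubulin isotypes rose and 2 fell of 12 tested, with a median of 0.24. Tubb2b (0.91 ± 0.06) and the neural alpha-tubulin Tuba1a (0.67 ± 0.08) were among those that rose, and Tuba8 (-1.20 ± 0.30) among those that fell. Of the 36 microtubule-associated and regulatory proteins 12 rose and 3 fell, with a median of 0.13. Fez1, a kinesin adaptor, rose by 1.09 ± 0.09 and Map6, which protects microtubules from cold, by 0.84 ± 0.09, and Map7 fell by 0.52 ± 0.07. Growth cone and neurite proteins rose in 21 of 28 cases and fell in 1, Sh3gl2 (-0.52 ± 0.13), with a median of 0.65. Among those that rose were the adhesion proteins Nrcam (0.89 ± 0.09) and Cntn2 (0.83 ± 0.09).

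Other neuron markers rose in 15 of 20 cases at D12 and 1 fell, with a median of 1.01, the same to 2 decimals as that of the 10 genes. Elavl3 rose by 1.03 ± 0.09, Nsg1, a neuronal endosome protein, by 1.14 ± 0.10 and the splicing regulator Celf3 by 1.33 ± 0.12, while Syn2 fell by 0.88 ± 0.23. The neural progenitor markers rose in 10 of 10 cases with a median of 0.79, and Hes5, a Notch target, rose by 1.53 ± 0.16 and Fabp7 of radial glia by 1.17 ± 0.10. None of the 14 mitosis markers passed at D12 in edgeR, and their summed level was 2870 to 3063 CPM with TBBPA and 2978 to 3065 CPM with DMSO. The neuron markers summed to 655.4 to 704.4 CPM with TBBPA and 335.7 to 338.9 CPM with DMSO, and the progenitor markers to 1388 to 1425 CPM with TBBPA and 897.2 to 907.2 CPM with DMSO. The median of all genes tested was 0.03.

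Markers of other cell types moved with these differences. At D12, 6 of 8 fibroblast markers fell, with a summed level of 2590 to 2932 CPM with TBBPA and 4087 to 4187 CPM with DMSO, and Fn1, fibronectin, fell by 0.65 ± 0.07. All 10 pluripotency markers fell, to a sum of 703.7 to 709.6 CPM with TBBPA, against 1092 to 1132 CPM with DMSO. Of the peripheral neuron markers 3 of 8 rose, with sums of 47.5 to 54.1 CPM with TBBPA and 33.7 to 34.9 CPM with DMSO, and of the glial markers 4 of 11 tested rose, with sums of 105.5 to 109.1 CPM with TBBPA and 80.0 to 82.7 CPM with DMSO; Gfap was at 0.156 to 0.260 CPM with TBBPA and 0.0512 to 0.102 CPM with DMSO. The skeletal muscle list had 1 fall in 8, with sums of 24.4 to 25.3 CPM with TBBPA and 28.2 to 29.6 CPM with DMSO. The part of these cell types in the rise of the 10 genes was not tested.

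At D18, 17 of 20 other neuron markers rose and 0 fell (median 0.66), as did 18 of 28 growth cone and neurite proteins (median 0.45), 10 of 36 microtubule-associated proteins (0.14), 6 of 12 tubulins (0.24) and 6 of 10 progenitor markers (0.54). Elavl3 rose by 0.76 ± 0.08, Cntn2 by 0.83 ± 0.08, Sox1 by 0.94 ± 0.11 and Pou4f1, a sensory neuron factor from the peripheral list, by 1.22 ± 0.16. All 8 muscle markers fell, with a sum of 32.8 to 37.6 CPM with TBBPA and 103.1 to 109.9 CPM with DMSO, among them Actn2 of the sarcomere (-1.41 ± 0.14). Fibroblast markers fell in 7 of 8 cases, with a sum of 3545 to 4984 CPM with TBBPA and 6955 to 7235 CPM with DMSO, and Postn, periostin, fell by 0.77 ± 0.10. Mitosis markers fell in 2 of 14 cases, Mki67 by 0.23 ± 0.06. Glial markers rose in 5 of 11 cases (median 0.61), with sums of 295.1 to 324.5 CPM with TBBPA and 217.7 to 224.7 CPM with DMSO, and peripheral neuron markers in 2 of 8, with sums of 57.1 to 58.9 CPM with TBBPA and 37.0 to 39.2 CPM with DMSO. How far these lists bear on the rise of the 10 genes was not tested.

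At D28, 5 of the 20 other neuron markers rose (median 0.31, against 0.39 for the 10 genes), among them the neurofilament Nefl (0.77 ± 0.14) and the synaptic vesicle protein Syp (0.59 ± 0.12). Growth cone proteins rose in 3 of 28 cases and tubulins in 1 of 12, Tubb2b (0.28 ± 0.06). Microtubule-associated proteins rose in 1 of 36, Fez1 (0.33 ± 0.09), where 3.65% of all genes tested rose. Of the mitosis markers 11 of 14 rose (median 0.29), with a sum of 1203 to 1249 CPM with TBBPA and 983.2 to 1004 CPM with DMSO, among them Birc5 (0.48 ± 0.08) and Mki67 (0.32 ± 0.07). Stmn1 is expressed in cycling cells as well as in neurons, and the part of the mitosis markers in its rise at D28 was not tested. All 8 muscle markers fell, with sums of 61.2 to 100.4 CPM with TBBPA and 163.6 to 169.2 CPM with DMSO. Of the fibroblast markers 4 of 8 fell and 1 rose, with sums of 10760 to 11520 CPM with TBBPA and 16230 to 16870 CPM with DMSO. Of the glial markers 1 of 11 rose (median 0.29), with sums of 1234 to 1348 CPM with TBBPA and 1001 to 1020 CPM with DMSO. The part of these cell types in the D28 differences was not tested.

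At D9, before most members passed, 5 of 10 progenitor markers rose (median 0.50), with Sox1 up by 0.76 ± 0.11 and Pax6, a neural progenitor factor, by 0.85 ± 0.14. Of the other neuron markers 3 rose and 1 fell of 20, with Elavl3 up by 0.67 ± 0.12 and Syn2 down by 1.11 ± 0.24. Growth cone proteins rose in 3 of 28 cases, Cntn2 by 0.55 ± 0.12, microtubule-associated proteins in 2 of 36, Dclk2, a doublecortin-like kinase, by 0.43 ± 0.09, and tubulins in 0 of 12. At D4, 0 genes of the tubulin, microtubule-associated, growth cone and other neuron lists passed in edgeR. Of the 10 progenitor markers 0 rose and 1 fell there, Sox2 (-0.39 ± 0.08, edgeR adjusted p = 0.0402), and 2 of 10 pluripotency markers fell.

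**Figure D3:**
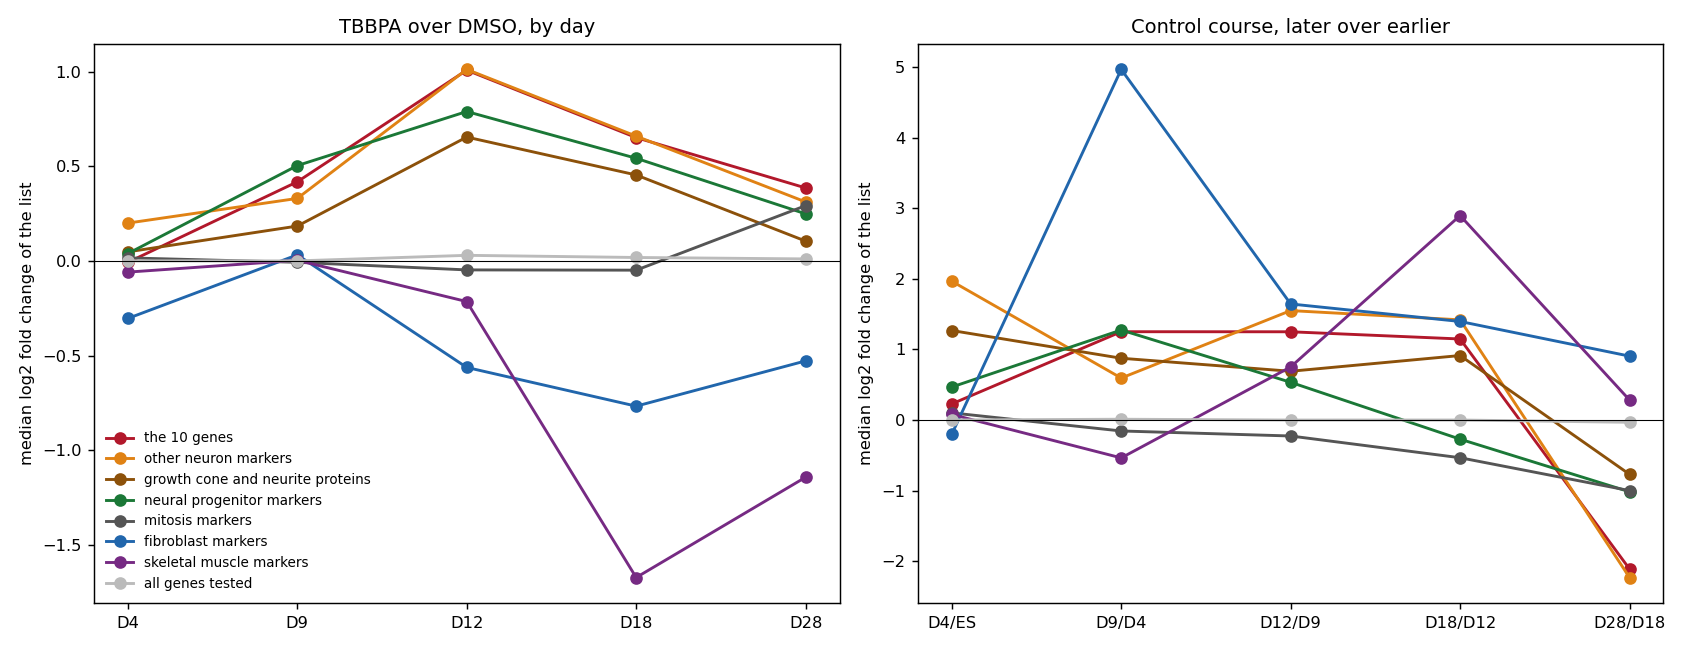
Median log2 fold change of the 10 genes, of 6 related or contrasting gene lists and of all genes tested, for TBBPA over DMSO at each day (left) and for each step of the control course, later over earlier (right). The medians of the 10 genes and of the other neuron markers both reach 1.01 at D12 with TBBPA, where the fibroblast list is at -0.56, and lie at -2.11 and -2.23 at D28 against D18.

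Per transcript length, Stmn1 had the highest level in every group and Dcx ranked 9 or 10 of the 10. At D18 with DMSO, FPKM (means of 2 libraries) averaged 460.1 for Stmn1, 136.6 for Tubb3, 70.5 for Gap43, 50.3 for Stmn4, 49.5 for Stmn2, 35.7 for Map2, 34.1 for Stmn3, 19 for Mapt, 14.4 for Dcx and 14 for Dpysl4. In this order only the libraries of Stmn4 and Stmn2 overlapped as neighbours. In ES cells the order was Stmn1 (253.0 FPKM), Stmn2 (71.8), Tubb3 (18.4) and Mapt (7.20), with every other member at 2.95 FPKM or less. At D28 with DMSO, Stmn2 (15.9 FPKM), Tubb3 (15.7) and Gap43 (15.3) had overlapping libraries.

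The make-up of the stathmin family, as shares of its summed FPKM, changed along the course. Stmn1 made up 77.2% in ES cells, 95.1% at D4, 94.3% at D9, 89.2% at D12, 77.5% at D18 and 80.1% at D28 with DMSO. In ES cells Stmn2 made up nearly all of the rest (21.9%), with 0.905% of Stmn3 and 0.0288% of Stmn4. At D18 the rest was spread over the 3 anchored stathmins, 8.34% of Stmn2, 5.74% of Stmn3 and 8.47% of Stmn4. With TBBPA the share of Stmn1 was 85.3 and 85.9% in the 2 libraries of D12, against 88.9 and 89.4% with DMSO, and 72.7 and 72.8% at D18, against 76.5 and 78.4% with DMSO. The groups did not overlap at either day, and no test was made on these shares, which carry the uncertainty of the Stmn1 counts.

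**Figure D4:**
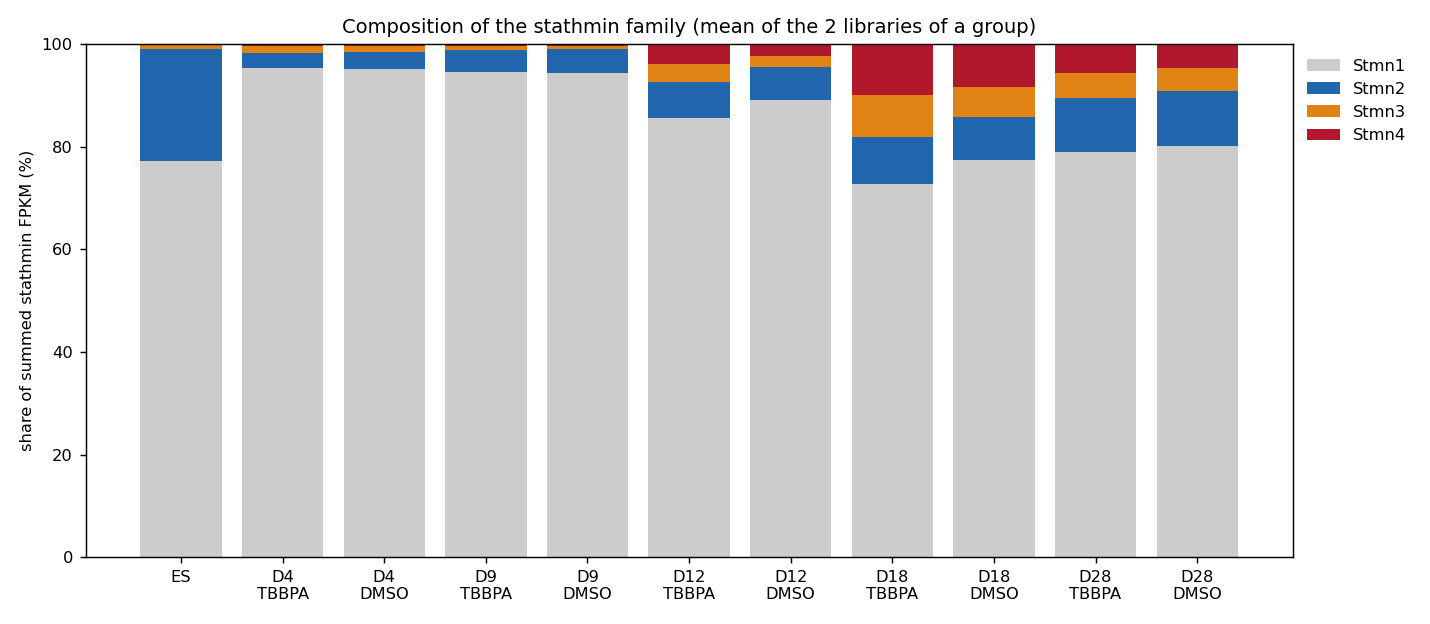
Share of each stathmin in the summed FPKM of the 4 stathmin genes (percent, stacked bars, mean of the 2 libraries of a group), for ES cells and, at each day, TBBPA left of DMSO. Stmn1 has its lowest share at D18 with TBBPA, and the ES bar is the only one in which Stmn2 exceeds 20% of the family.

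The tables also list for each gene a length that varies between libraries, as it does by more than 1 base for 69.5% of all genes tested. For Map2 it was 5681 and 5770 bases at D4 with DMSO, 5867 to 5936 bases at D12, 6155 to 6180 bases at D18 and 5977 to 6011 bases at D28. In the TBBPA libraries it was 6218 and 6237 bases at D18, against 6155 and 6180 bases with DMSO, but 5868 and 5880 bases at D12, within the range of the DMSO libraries. The D18 pair lay above the D4 pair, as in 17.9% of all genes. The authors' entry for Map2 names 25 transcripts, of which 3 were found in the annotation. These 3 are 5440 and 4981 bases long with short coding regions of 467 and 498 codons, and 6258 bases long with 1828 codons. With the lengths of the others not at hand, the listed length could not be matched to any 1 transcript. For Mapt the listed length ran the other way, at 5189 and 5193 bases at D18 with DMSO, against 5546 and 5853 bases at D4, as in 13.4% of all genes, and at D12 it was 5237 and 5264 bases with TBBPA, against 5367 and 5433 bases with DMSO. The share of all genes whose listed length differed between TBBPA and DMSO was not counted. The way in which the authors derived this length is not stated in the material at hand, and no isoform counts were analysed here.

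**Figure D5:**
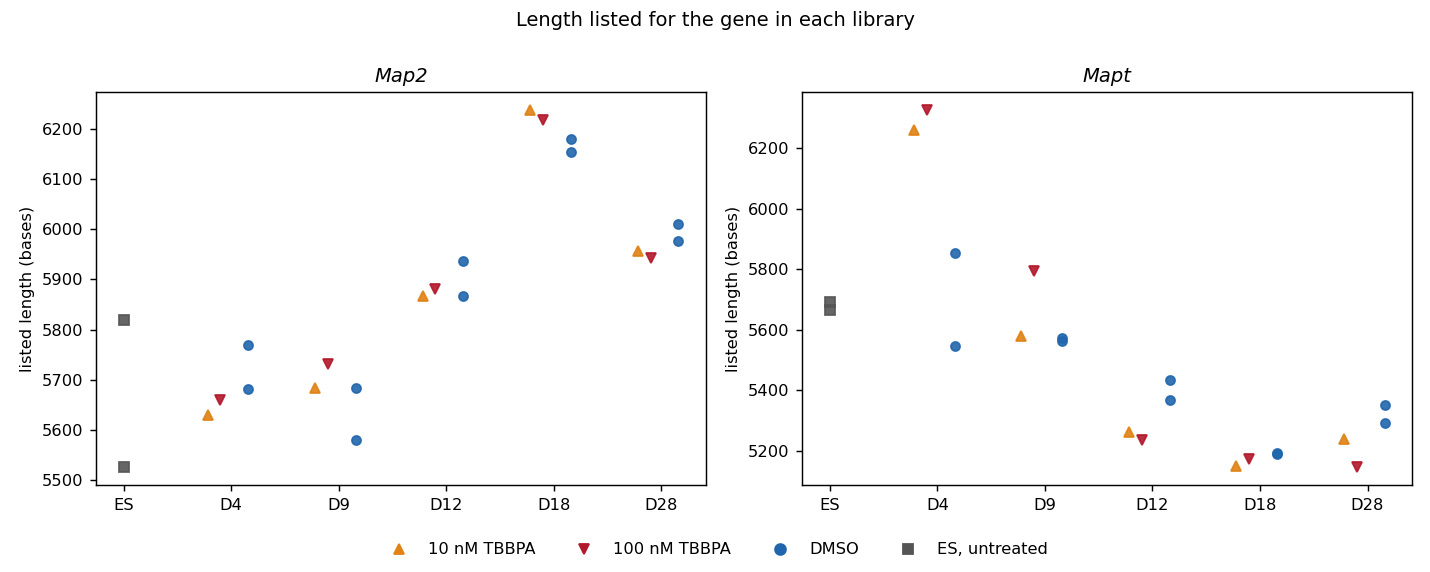
Length listed for Map2 and Mapt (bases) in each of the 22 libraries, with ES cells and the 5 days on the x axis and TBBPA libraries left of DMSO libraries at each day. The Map2 values are highest at D18, all at 6155 bases or more, and the Mapt values of D18 are all at 5193 bases or less.

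The members did not share 1 profile. Over the 11 means of the ES, TBBPA and DMSO groups, the correlation of log2(CPM + 1) was highest for Dpysl4 and Gap43 (r = 0.992) and lowest for Stmn1 and Mapt (r = 0.253), and Dcx had r = 0.961 with Map2 and r = 0.956 with Stmn4. The added 1 flattens differences between low levels. These are descriptions of 11 points that share libraries, scaling and the course itself. Among the 10562 genes with a mean of at least 10 CPM, those most like Dcx outside the 10 members were Add2, a spectrin-binding adducin (r = 0.992), Nrn1, a small neurite protein (r = 0.987), and Kif3c, a kinesin (r = 0.984). Those most like Tubb3 were Tmcc2 (r = 0.992), Vash1, whose protein removes the last tyrosine of alpha-tubulin (r = 0.987), and Morn4 (r = 0.986). Plppr3 (r = 0.991), Fam168b (r = 0.990) and Dach1 (r = 0.987) were most like Dpysl4, and Zbtb14 (r = 0.974), Zfp763 (r = 0.966) and Panx1 (r = 0.963) most like Stmn1.

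Promoter windows from RefSeq (GRCm38.p6, 250 bases before to 50 after a gene's start) were found for 4 of the members, Tubb3, Dcx, Map2 and Stmn3, 5 windows in all, and were read for letters of neuronal and general promoter motifs on both strands. The element bound by REST, a repressor that keeps neuronal genes silent elsewhere, searched as CAGCACC and GGACAG with any 2 bases between them, was in 0.0365% of all 32851 windows and in none of these 5. Searched alone, CAGCACC was in 7.14% and GGACAG in 22.2% of all windows. The Tubb3 window held both, apart at -121 and 12 bases from its start, and the Map2 window held GGACAG at -219, all on the opposite strand. The TATA box letters TATAAA were in 13.6% of all windows and, among the members, in those of Dcx only. There the overlapping windows hold the same TATAAA, which begins at -193 or -98 bases, depending on the RefSeq start that defines the window. CCAAT (37.4% of all windows) was in those of Dcx and Tubb3, and CAGCTG, an E-box of proneural factors (16.3%), in none of the 5. The stretch of the Dcx window ahead of the annotated gene, chrX:143933312-143933469 on the − strand of GRCm38.p6, is shown because Dcx had the lowest level of the 10 in ES cells, with CCAAT and TATAAA in capitals. It ends where the gene begins in GENCODE M21, whereas the RefSeq start of this window lies further on, with TATAAA at -98 from it.
Dcx: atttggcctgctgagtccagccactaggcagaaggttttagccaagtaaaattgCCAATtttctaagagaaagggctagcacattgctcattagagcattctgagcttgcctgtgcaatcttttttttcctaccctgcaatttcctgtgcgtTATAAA
These letters are matches only, and the absence of a motif says only that it is not in these windows.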

How the data were processed

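RNA-seq of 22 libraries from J1 cells was analysed from per-library gene tables. Per the file headers, the authors deposited for each gene an expected count (an estimated number of fragments, of which 64.9 to 66.7% were whole numbers), an FPKM value and a length. Per the submitters' processing notes, HISAT and Bowtie2 were used with the mouse build GRCm38.p5, and the counting tool is not named in the sources used here. A gene not listed in a table was taken as 0. Depth was 18158583 to 18998141 counts per library.

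After rounding, the expected counts went into edgeR 4.0.16 (R 4.3.3; robust quasi-likelihood F test, TMM scaling, filterByExpr with minimum counts of 10 per library and 15 in all, Benjamini-Hochberg adjustment over all genes tested, threshold 0.05). The steps of the control course were fitted on the 12 ES and DMSO libraries (6 residual degrees of freedom), TBBPA at each day and its difference between days on all 22 libraries in 11 groups (11 residual degrees of freedom), and the doses over days on the 20 embryoid body libraries with day and dose (13 residual degrees of freedom). Scripts used Python 3.11.15, pandas 2.3.3, matplotlib 3.10.9 and Biopython 1.88, and the test scripts were tested on simulated data. Alternatives were DESeq2 1.42.0, other scalings and filters, limma 3.58.1 on log2(FPKM + 1) and log2(FPKM + 0.1), fewer libraries in the fit, summed DMSO pairs, a replicate block, and each library or day left out; the fit without the ES libraries was added after seeing the data. DMSO and ES libraries share replicate numbers, but these do not pair the samples: of 15 pairs of groups, same-numbered libraries deviated together with r over 0.1 in 1, with a range of -0.0502 to 0.241.

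The 10 members and all gene lists were chosen with earlier results of these data known. Listed genes named in the text were, for each list and comparison, among the 3 that rose and the 2 that fell with the smallest p, plus 8 markers (Elavl3, Syt1, Sox1, Mki67, Pou5f1, Col1a1, Myog and Gfap); the genes most like a member were the 3 with the highest Pearson r. Gene positions and coding sequences are from GENCODE M21, a reference of another patch of the build (GRCm38.p6), and promoters from RefSeq. Protein sequences were not used here. One gene of the neuron list is not reported here by name.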

Additional observations from a re-analysis of the deposited data

Results flagged for a closer look

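For 8 of the 10 genes the TBBPA effect differed between the days by a test of the difference itself (edgeR quasi-likelihood F test over the 5 days, adjusted over all genes tested). The adjusted p was 0.000315 for Dpysl4, 0.000642 for Mapt, 0.000708 for Map2, 0.000966 for Stmn2, 0.00277 for Stmn4, 0.00906 for Stmn3, 0.0122 for Tubb3 and 0.0339 for Stmn1. Without D12 only Mapt and Stmn2 passed, and with each DMSO pair added into 1 library 0 of the 10 passed in edgeR (adjusted p of 0.1 for Dpysl4 to 0.65 for Stmn1 among these 8), 7 having an unadjusted p under 0.05. Mapt had the lowest estimate of the 10 at D4, -1.02 ± 0.27, which did not pass, and rose by 0.69 ± 0.10 at D18. The effect of Map2 was largest at D12 (0.87 ± 0.08) and near 0 at D28 (0.02 ± 0.09).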

How the results depend on the processing

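No member called in edgeR changed direction under any alternative run, and all 10 were called at D12 with TBBPA under each of them. With the replicate block in the control fit, 7, 9, 8, 10 and 10 members passed over the 5 steps and 10006, 9779, 5240, 6034 and 8479 genes; the pairing of the numbers has no support in the labels. The TBBPA libraries carry no such number. Library size alone moved the median of all genes by 0.141 (log2) at D9 against D4 and by 0.06 or less elsewhere.

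With the 4 libraries of a comparison fitted alone, 8056 genes passed at D12 against D9, and with TBBPA 663 at D4 (1 member), 576 at D9 and 5223 at D12. With limma on log2(FPKM + 0.1), 141 genes passed at D4 (1 member), 184 at D9 (1 member), 1043 at D18 and 642 at D28 (2 members). DESeq2 gave 160 genes at D4 (1 member). With 10 nM alone, 4 genes passed at D4, 217 at D9, 1887 at D12, 939 at D18 and 426 at D28 (2 members); with 100 nM alone, 1 member passed at D9 and 2 at D28. With each DMSO pair added into 1 library, 0 genes passed at D4 (694 at an unadjusted p under 0.05), 0 at D9 (918 unadjusted; 0 members), 781 at D12, 172 at D18 (3 members), 6 at D28 (0 members) and 21 in the test between days (0 members). Without the ES libraries, 269 genes passed at D4, 771 at D9, 2602 at D18, 2074 at D28 (7 members) and 3380 between days.

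Over the days, the summed DMSO pairs gave 300 genes and 4 members with 10 nM, 868 and 5 with 100 nM, and 1231 genes for the mean of both doses. With no day term 0 genes and 0 members passed in these 3 comparisons (90, 111 and 222 genes unadjusted). limma gave 886 (pseudocount 1) and 877 (0.1) genes with 10 nM. Between 100 nM and 10 nM, limma with pseudocount 1 called 2 genes and DESeq2 8.

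With 1 library left out in turn, members and genes passing were 6 to 7 and 8804 to 10759 at D4 against ES cells, 9 and 8371 to 8560 at D9, 8 and 3236 to 3426 at D12, 9 and 4141 to 4216 at D18, and 10 and 6707 to 6805 at D28. With TBBPA they were 0 and 1 to 29 at D4, 1 to 2 and 93 to 287 at D9, 10 and 1718 to 2172 at D12, 7 to 10 and 735 to 1342 at D18, and 1 to 2 and 231 to 1303 at D28. With 1 day left out they were 2 to 8 and 515 to 1455 between days, 5 to 10 and 331 to 1867 with 10 nM, 6 to 9 and 1044 to 2611 with 100 nM, 8 to 10 and 1675 to 3628 for the mean, and 0 and 0 to 4 between doses.

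Members whose uncalled log2 change took the other sign were these. Stmn1 at D12 against D9 was 0.004376 with DESeq2 size factors, 0.02991 with library size, 0.03096 and 0.03104 with limma and 0.004375 with DESeq2. With TBBPA at D4, Dcx was -0.000444 with library size, -7.072e-05 and -0.005986 with limma, -0.007696 with summed pairs and -4.243 with 100 nM alone, where it is not listed; Gap43 was 0.06105 with 10 nM alone and Dpysl4 -0.02535 with 100 nM alone. Stmn4 at D9 was 0.2512 with 10 nM alone, and Map2 at D28 was -0.01262 with library size, -0.003498 and -0.003892 with limma and -0.07444 with 100 nM alone. Between doses, without a day term Dcx was 0.008371, Map2 0.0253 and Stmn1 -0.008345; Stmn4 was 0.009965 with library size and 0.0001025 with no filter; Dpysl4 was -0.007001 and -0.01787 with limma and -0.004593 with DESeq2. With 1 library left out, Stmn3 at D9 against D4 lay at -0.3275 to 0.01064 and Stmn1 at D12 against D9 at -0.06769 to 0.007058. With TBBPA at D4, Dcx lay at -4.25 to 0.9586, Stmn4 at -0.1701 to 0.04306, Gap43 at -0.2032 to 0.1949 and Dpysl4 at -0.256 to 0.4154, Stmn4 at D9 lay at -0.9057 to 0.2516, and Map2 at D28 at -0.07409 to 0.1027. With 1 day left out, the difference of the doses lay at -0.1973 to 0.0278 for Dcx, -0.09617 to 0.02134 for Map2, -0.1678 to 0.07641 for Mapt, -0.0007837 to 0.09908 for Stmn1, -0.1638 to 0.00145 for Stmn3, -0.08265 to 0.07068 for Stmn4, -0.1262 to 0.04807 for Gap43 and -0.01972 to 0.02562 for Dpysl4. The causes were not tested. limma was not run for the test between days. Depth limits Dcx at D4 and in ES cells, where it had a few counts.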
